A study of Mus musculus with 16 samples.

Results

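Goblet cells sorted from the distal colon of wild-type reporter mice were compared with the rest of the live epithelium of the same tissue. The comparison used 8 of the 16 libraries of the series. These were 4 libraries of the mCherry-positive fraction, which the labels call goblet cells (WT_GC, libraries 9, 11, 13 and 18), and 4 of the mCherry-negative fraction, which they call colonocytes (WT_EC, libraries 10, 12, 14 and 17). All 8 came from mice of the strain RedMUC298trTg aged 6 to 8 weeks, which carry a transgene that marks goblet cells with the red fluorescent protein mCherry. No label names the promoter that drives it. Live cells were divided on a FACS Jazz sorter with a C57Bl6 mouse as the colour-free control, so WT_EC holds every viable mCherry-negative cell and not only colonocytes. Whether the 4 libraries of a group stem from different mice is not stated, so the p-values measure the spread among these libraries only, and that spread may be technical. RNA of the mCherry-positive cells was purified on another type of column (RNeasy MinElute) from that used for the mCherry-negative cells (RNeasy Mini), so column and fraction cannot be told apart. The other 8 libraries, labelled SpdefKO_GC and SpdefKO_EC and prepared in the same way from SpdefKO_RedMUC298trTg mice of the same age, entered only the shared estimate of spread and a test of whether the difference between fractions depended on genotype. Spdef, the transcription factor named by those labels, was at 371 ± 62.2 CPM (SD, n = 4) in the libraries labelled SpdefKO_GC and 296 ± 17.7 CPM in WT_GC, so its counts were not lower under that label and statements on genotype refer to the label alone.

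Goblet cells make and store the gel-forming mucin Muc2, a very large glycoprotein that is folded and joined by disulphide bonds in the endoplasmic reticulum (ER), decorated with dense O-linked sugar chains in the Golgi apparatus, packed into granules and released to form the mucus that separates bacteria from the colonic surface. Their fate is set by the transcription factor Atoh1 when Notch signalling is low, while cells that receive a Notch signal become absorptive colonocytes. Colonocytes take up sodium, chloride, water and short-chain fatty acids and carry a brush border. Rarer enteroendocrine and tuft cells share the surface with them.

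Each library held 10969888 to 17111987 read counts assigned to genes, and 15648 to 15921 genes had at least 1 count in the WT_EC libraries against 16553 to 17105 in the WT_GC libraries. Of the counted entries, 48.7 to 54.7% named no gene and were left out. The first principal component of the 8 libraries carried 89.9% of their variance and divided the fractions. Expression is given throughout in CPM, the count of a gene scaled to 1000000 counts of the composition-corrected library. Values joined by "against" give WT_GC first and WT_EC second, as the mean or the mean ± SD of 4 libraries. Lists of 4 values run in the order 9, 11, 13, 18 for WT_GC and 10, 12, 14, 17 for WT_EC. A difference is given as log2 of WT_GC over WT_EC ± its approximate standard error, and it was called at a Benjamini-Hochberg adjusted p under 0.05 in edgeR's quasi-likelihood test over 12915 tested genes. Genes were named by the size of their difference within gene lists, and other list members were added for their known roles after their values had been seen. The strand setting of the counting is not given, so reads of a gene and of a partner on the opposite strand cannot be told apart. Among the genes named this touches Atp2c1, Ccl6, Cdk2, Clcn2, Dll4, Dmbt1, Glipr1, Hsp90b1, Il18, Irf7, Kcnh3, Kdelr3, Muc4, Pla2g2a, Scnn1b, St3gal4, Syvn1, Tpsg1, Wars and 5430427M07Rik.

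The marker genes stood on the side their labels call for. Muc2 was at 12209, 12008, 11237 and 12893 CPM in the WT_GC libraries and 43.99, 39.4, 52.9 and 57.2 CPM in the WT_EC libraries. Fcgbp, a mucus protein that is linked to Muc2, was at 19323, 16619.7, 18396 and 17047 CPM and 84.1, 75.7, 104 and 95.8 CPM. Atoh1 was at 369.7, 368, 329.7 and 431 CPM and 2.16, 2.21, 2.61 and 2.06 CPM. For all 3 goblet cell markers the lowest WT_GC library lay far above the highest WT_EC library. The WT_EC libraries held 0.400% of the WT_GC level of Muc2, 0.503% of that of Fcgbp and 0.603% of that of Atoh1. The colonocyte markers Slc9a3, the sodium-hydrogen exchanger of the brush border, and Car4, a membrane carbonic anhydrase, were placed the other way: Slc9a3 was at 4.06, 4.52, 2.61 and 4.72 CPM in the WT_GC libraries and 226, 321, 231 and 224 CPM in the WT_EC libraries. Car4 was at 32.1, 20.7, 26.9 and 49.9 CPM and 1619, 1649, 1706 and 1792 CPM. WT_GC held 1.59% of the WT_EC level of Slc9a3 and 1.92% of that of Car4. In bulk libraries such as these, fewer cells of a type and less RNA per cell cannot be told apart.

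Across the transcriptome, 4007 genes were higher in WT_GC (31.0% of the 12915 tested) and 3894 were lower (30.2%). The median log2 difference of all tested genes was 0.051. Without adjustment, 8325 genes had p under 0.05. The difference was 2-fold or more for 1157 higher and 1642 lower genes and 8-fold or more for 257 and 298. In 3630 higher and 3598 lower genes the 4 libraries of WT_GC did not overlap the 4 of WT_EC. A gene group in which about 31.0% of the members were higher, or 30.2% lower, was therefore at the background of this comparison.

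**Figure D1:**
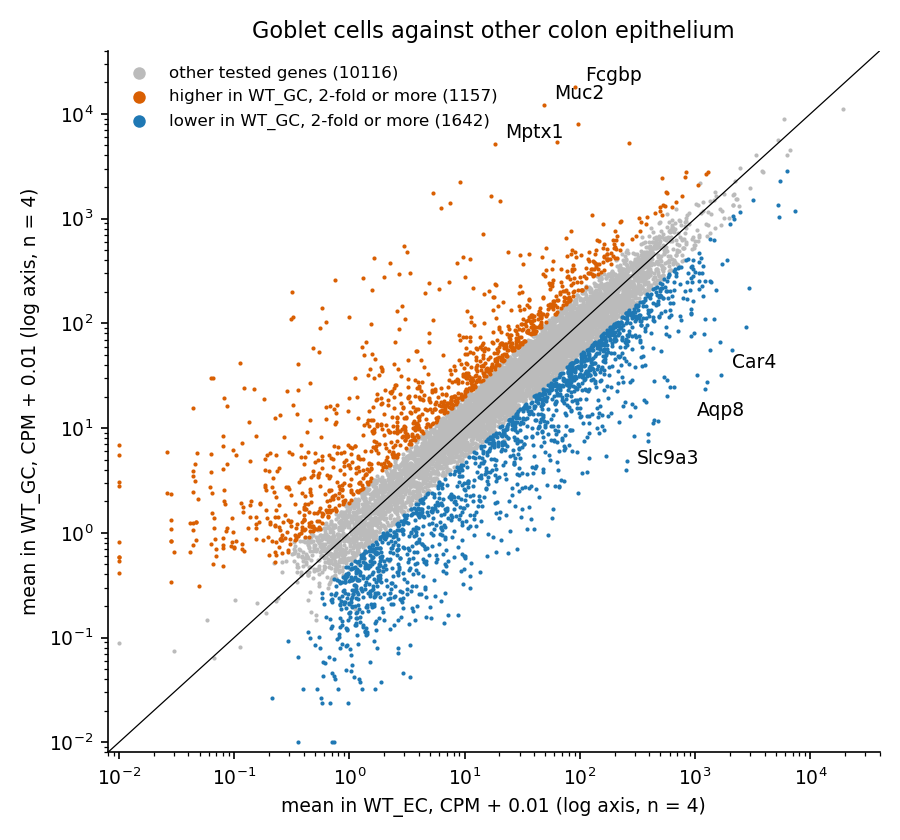
Mean expression of each of the 12915 tested genes in WT_EC (x axis) and WT_GC (y axis), in CPM on log axes with 0.01 added, 4 libraries each. Called genes at least 2-fold higher in WT_GC are orange (1157), those at least 2-fold lower are blue (1642), and all others are grey; Muc2, Fcgbp and Mptx1 lie far above the diagonal and Slc9a3, Car4 and Aqp8 far below it.

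The products of the mucus layer come first. The 18 tested genes of this list (23 listed) held 6.14 ± 0.346% (SD, n = 4) of the gene counts of WT_GC and 0.684 ± 0.0181% of those of WT_EC, and 15 of them were higher in WT_GC with a median log2 difference of 6.36 over the list. With the 20 most abundant genes of each library left out, the shares were 0.736% and 0.0949%. In WT_GC this removes Muc2, Fcgbp and further abundant members of the list. In WT_EC it removes Pigr and Tgm3, described below, which held most of the 0.684%. Fcgbp (log2 7.63 ± 0.19, adjusted p = 3.23e-16) and Muc2 (log2 7.96 ± 0.22, adjusted p = 2.40e-15) were followed by Clca1, a secreted metalloprotease that processes mucus (listed in the files under its older symbol Clca3), at 7968 ± 1064 against 95.97 ± 16.7 CPM. The calcium-activated chloride channel regulator family to which Clca1 belongs holds near-identical copies, so its reads may be shared among them. Zg16, a lectin that binds gram-positive bacteria, was at 5577, 4519, 6421 and 4901 CPM in the WT_GC libraries and 54.2, 72.9, 62.1 and 64.8 CPM in the WT_EC libraries. Agr2, a protein disulphide isomerase needed for Muc2 production, was at 5258 ± 315 against 266 ± 75.01 CPM, Tff3, a trefoil peptide of mucus, at 1479 ± 193 against 20.2 ± 2.29 CPM, and Reg4, a secreted lectin, at 1647 ± 379 against 16.9 ± 7.99 CPM. For each of these genes every WT_GC library was above every WT_EC library.

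Smaller secreted products were divided between the fractions as well. Retnlb, the bacteria-killing resistin-like protein, had 1813 counts over the 4 WT_GC libraries and 3 over the 4 WT_EC libraries, all 3 in library 17, a ratio of 563 (95% exact interval 192 to 2734, counting error only). Pla2g2a, an antibacterial phospholipase, had 943 against 2 counts, a ratio of 439 (121 to 3634). Spink4, a protease inhibitor of goblet cells, was at 2224 ± 189.5 against 9.18 ± 4.15 CPM, and Sval1 at 1273 ± 234 against 6.25 ± 1.08 CPM. Ang4, an antimicrobial ribonuclease with near-identical relatives, was at 22.7 against 0.278 CPM. Not every mucus gene was on the goblet cell side. Tgm3, a transglutaminase that cross-links proteins, was lower in WT_GC at 92.2 ± 18.8 against 2754 ± 238 CPM (log2 -4.90 ± 0.22, adjusted p = 5.48e-12), Wfdc2, a secreted protease inhibitor, at 125 against 253 CPM, and Igj, the joining chain of secreted antibodies, at 0.0381 against 1.02 CPM. The receptor that carries antibodies across the epithelium, Pigr, was higher at 4034 against 3364 CPM, a log2 difference of 0.26. The mean of the stomach mucin genes Muc5ac and Muc6 and of the trefoil gene Tff2 stayed under 1 CPM in both fractions (0.826 ± 0.408, 0.619 ± 0.436 and 0.7396 ± 0.163 CPM in WT_GC), and Tff1 had no count in any library. Mucins anchored in the cell membrane were 3 higher and 1 lower of 4 tested: Muc1 was at 19.3 ± 4.35 against 1.85 ± 0.143 CPM and Muc4 at 184 ± 25.8 against 62.3 ± 12.9 CPM, and Muc13 was lower at 1529.8 ± 145 against 2272 ± 107 CPM.

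Compared per kilobase of exon, which allows levels of different genes to be set side by side, Mptx1 reached 6400.3 CPM per kb in WT_GC, Spink4 4662, Zg16 4259.6 and Agr2 4073. Mptx1 encodes a mucosal pentraxin and had the highest value of these 4. Muc2 is left out of this order because its annotated exons in the reference do not span the gene. Mptx1 was at 5185, 3171, 7134 and 4965 CPM in the WT_GC libraries and 15.1, 12.2, 30.7 and 14.8 CPM in the WT_EC libraries. Library 13 was the highest and library 11 the lowest of WT_GC, and all 4 lay above every WT_EC library.

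**Figure D2:**
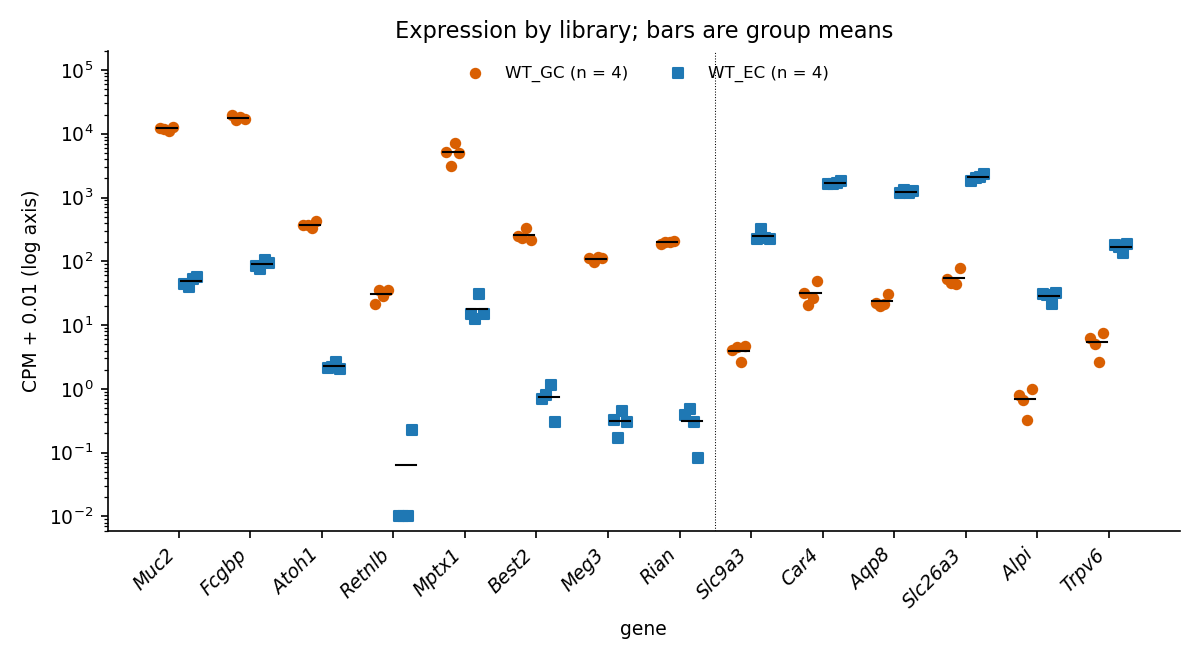
Expression of 14 genes in each library in CPM on a log axis with 0.01 added; orange circles are the 4 WT_GC libraries, blue squares the 4 WT_EC libraries, and bars mark group means. The 8 genes at the left are higher in every WT_GC library than in any WT_EC library, and the 6 at the right are lower in every one.

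Above these products stood the secretory pathway. In the ER, 25 of 28 tested genes of protein targeting and translocation were higher in WT_GC and 1 was lower, with a median log2 difference of 1.13. Ssr3 and Ssr1, subunits of the translocon-associated complex, were at 577 against 197 CPM and 439 against 163 CPM, and the channel subunit Sec61a1 at 530.2 against 202 CPM. Of the folding genes, 38 of 46 were higher and 0 were lower by edgeR's test, and 27 of the 38 were at least 2-fold higher, with a median of 1.11. That 0 was also 0 at an unadjusted p under 0.05 and with DESeq2 and limma-voom, as were the counts of 0 given below for the oligosaccharyltransferase, absorptive factor and proliferation lists. Hspa5, the chaperone BiP, was at 3428, 2468, 2469 and 2793 CPM in the WT_GC libraries and 1468, 1374, 1171 and 1167 CPM in the WT_EC libraries, 2 ranges that did not overlap (log2 1.11 ± 0.13, adjusted p = 9.32e-07). Several disulphide enzymes differed by more than Hspa5. Qsox1, a sulfhydryl oxidase, was at 480.1 ± 31.6 against 23.6 ± 2.88 CPM (log2 4.34 ± 0.11, adjusted p = 2.32e-16), Pdia5 at 177 against 17.9 CPM and Txndc5 at 1091 against 127 CPM. Fkbp11 and Ppic, prolyl isomerases of the secretory pathway, were at 32.4 against 1.78 CPM and 11.3 against 0.751 CPM. Members that did not pass included the oxidase Ero1l at 60.7 against 61.02 CPM and the co-chaperone Dnajb9 at 85.8 against 97.4 CPM. The share of gene counts held by the folding list was 1.72 ± 0.0932% in WT_GC and 0.637 ± 0.0521% in WT_EC (SD, n = 4).

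The short promoter stretches of these genes could be searched for the ER stress response element, the sequence through which the unfolded protein response is known to act on chaperone genes. The element searched was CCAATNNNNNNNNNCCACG on both strands of the 300 bases from 250 before to 50 after each RefSeq gene start (build GRCm38.p6). It was present in 39 of 32851 promoters (0.119%), in 18 of the 10253 tested genes that had a promoter (0.176%), in 9 of the 874 genes at least 2-fold higher in WT_GC (1.03%) and in 0 of the 1238 at least 2-fold lower. Among the ER folding genes 8 of 41 had it (19.5%), and 7 of those 8 were higher in WT_GC. The eighth, Ero1lb, was at 10.9 against 8.52 CPM, not called here but called as higher with upper-quartile factors (adjusted p = 0.0240), with library totals alone (0.0291) and in a fit of the 8 WT libraries (0.0455). The matches in 10 ER genes are shown because they carry this count, each read 5′ to 3′ in the direction of the element, with the fixed CCAAT and CCACG boxes in capitals:
Hspa5, chr2:34772025-34772043, + strand: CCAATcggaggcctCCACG
Hsp90b1, chr10:86705638-86705656, − strand: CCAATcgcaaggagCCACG
Pdia6, chr12:17266491-17266509, + strand: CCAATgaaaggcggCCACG
Dnajc3, chr14:118937827-118937845, + strand: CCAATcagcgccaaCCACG
Calr, chr8:84847075-84847093, + strand: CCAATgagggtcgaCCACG
Canx, chr11:50325800-50325818, − strand: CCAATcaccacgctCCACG
Creld2, chr15:88819520-88819538, − strand: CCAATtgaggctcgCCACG
Ero1lb, chr13:12565682-12565700, − strand: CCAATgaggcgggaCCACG
Derl3, chr10:75893242-75893260, − strand: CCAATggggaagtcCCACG
Syvn1, chr19:6046532-6046550, + strand: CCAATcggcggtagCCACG
The match of Creld2 is also the match of Alg12, whose start lies on the other side of it. Pdia6, a disulphide isomerase, was at 604 ± 35.02 against 146 ± 25.5 CPM, Dnajc3, a co-chaperone of BiP, at 371 ± 49.7 against 142 ± 12.6 CPM, and Hsp90b1, the chaperone Grp94, at 1659 ± 195 against 771 ± 57.9 CPM. Creld2 was at 86.5 against 27.5 CPM, the lectin chaperones Calr and Canx at 1182 against 492 CPM and 962 against 632 CPM, and the degradation gene Syvn1 at 67.5 against 37.99 CPM. Of the 18 tested genes with a match 13 were higher, 1 was lower (Spats2l, log2 -0.88) and 4 were not called, among them Acacb (log2 -0.13) and Ero1lb (log2 0.35). A match is a description of these letters only. The 250 bases upstream of Hspa5 show where it lies, with the match in capitals:
Hspa5, chr2:34771840-34772089, + strand: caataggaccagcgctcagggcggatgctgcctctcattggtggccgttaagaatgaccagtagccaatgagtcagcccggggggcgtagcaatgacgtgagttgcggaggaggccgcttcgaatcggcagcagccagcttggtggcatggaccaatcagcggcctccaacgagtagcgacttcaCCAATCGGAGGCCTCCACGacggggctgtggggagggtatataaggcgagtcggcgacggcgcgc

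Removal of misfolded proteins and the sensors of ER stress were shifted less. The median log2 difference was 0.36 for ER-associated degradation, with 23 of 30 genes higher and 2 lower, and 0.64 for the sensors and effectors of the unfolded protein response, with 17 of 23 higher and 3 lower. Ern2, the form of the sensor IRE1 found in mucous epithelia, was at 434, 416, 409 and 447 CPM in the WT_GC libraries and 48.5, 42.8, 48.05 and 47.1 CPM in the WT_EC libraries, while the general form Ern1 was at 71.5 against 48.9 CPM. All 4 WT_GC libraries were above all WT_EC libraries for both. Xbp1, whose messenger RNA is cut by IRE1, was at 570.4 ± 40.5 against 162 ± 10.7 CPM. Creb3l4 and Creb3l1, transcription factors anchored in the ER membrane, were at 194 against 4.54 CPM and 178 against 47.6 CPM, whereas their relative Creb3l3, known from absorptive cells and liver, was lower at 0.129 against 6.64 CPM (log2 -5.72 ± 0.28, adjusted p = 1.78e-12). Herpud1, an adaptor of ER degradation, was at 761 against 200.1 CPM. The addition of N-linked sugars followed the folding genes, with 29 of 33 genes of the oligosaccharyltransferase and its precursor pathway higher and 0 lower by the same test, among them the catalytic subunit Stt3a at 377 against 136 CPM and Ostc at 173 against 47.9 CPM.

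Vesicle transport between ER and Golgi was higher in WT_GC for 47 of 58 genes and lower for 5, with a median log2 difference of 0.82. Mia3, the receptor that loads bulky cargo into COPII carriers, was at 902, 861, 892 and 921 CPM in the WT_GC libraries and 149, 166, 155 and 165 CPM in the WT_EC libraries, without overlap (log2 2.49 ± 0.093, adjusted p = 4.44e-14). Kdelr3, a receptor that returns ER proteins, was at 67.02 against 4.88 CPM. The COPI subunit Copz2 was at 26.7 ± 2.15 against 0.443 ± 0.303 CPM, and its sister Copz1 at 138 against 74.3 CPM. The inner-coat genes of COPII did not move together: Sec24d was at 171 ± 7.96 against 36.3 ± 3.17 CPM, Sec23b at 122 against 60.7 CPM, and Sec23a was lower at 80.8 ± 8.08 against 152 ± 6.45 CPM (log2 -0.91 ± 0.078, adjusted p = 6.04e-09). Among the lower genes was also Mia2, a relative of Mia3, at 12.4 against 27.96 CPM. A second promoter sequence, TGACGTGG, the core of the unfolded protein response element, was present on either strand in 105 of the 10253 tested genes with a promoter (1.02%), in 24 of the 874 at least 2-fold higher (2.75%), in 9 of the 1238 at least 2-fold lower (0.727%) and in 9 of 52 genes of the carrier list (17.3%), 8 of them higher in WT_GC and Sec23a lower. Sec24d is shown as the carrier gene with this match and a log2 difference of 2.23, with its 250 upstream bases and the match in capitals:
Sec24d, chr3:123267246-123267495, + strand: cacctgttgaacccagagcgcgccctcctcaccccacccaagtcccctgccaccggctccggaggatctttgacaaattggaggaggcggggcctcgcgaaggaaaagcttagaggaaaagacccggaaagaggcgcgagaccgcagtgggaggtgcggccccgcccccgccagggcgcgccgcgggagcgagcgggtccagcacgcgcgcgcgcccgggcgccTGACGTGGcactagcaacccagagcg

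In the Golgi apparatus, 29 of 35 genes of structure and tethering were higher and 2 lower, with a median of 0.89. Atp2c2, a calcium and manganese pump, was at 372 ± 41.9 against 31.8 ± 6.69 CPM, and its sister Atp2c1 at 187 against 95.01 CPM. Casc4, a Golgi membrane protein now named Golm2, was at 66.5 ± 9.77 against 2.49 ± 0.554 CPM.

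**Figure D3:**
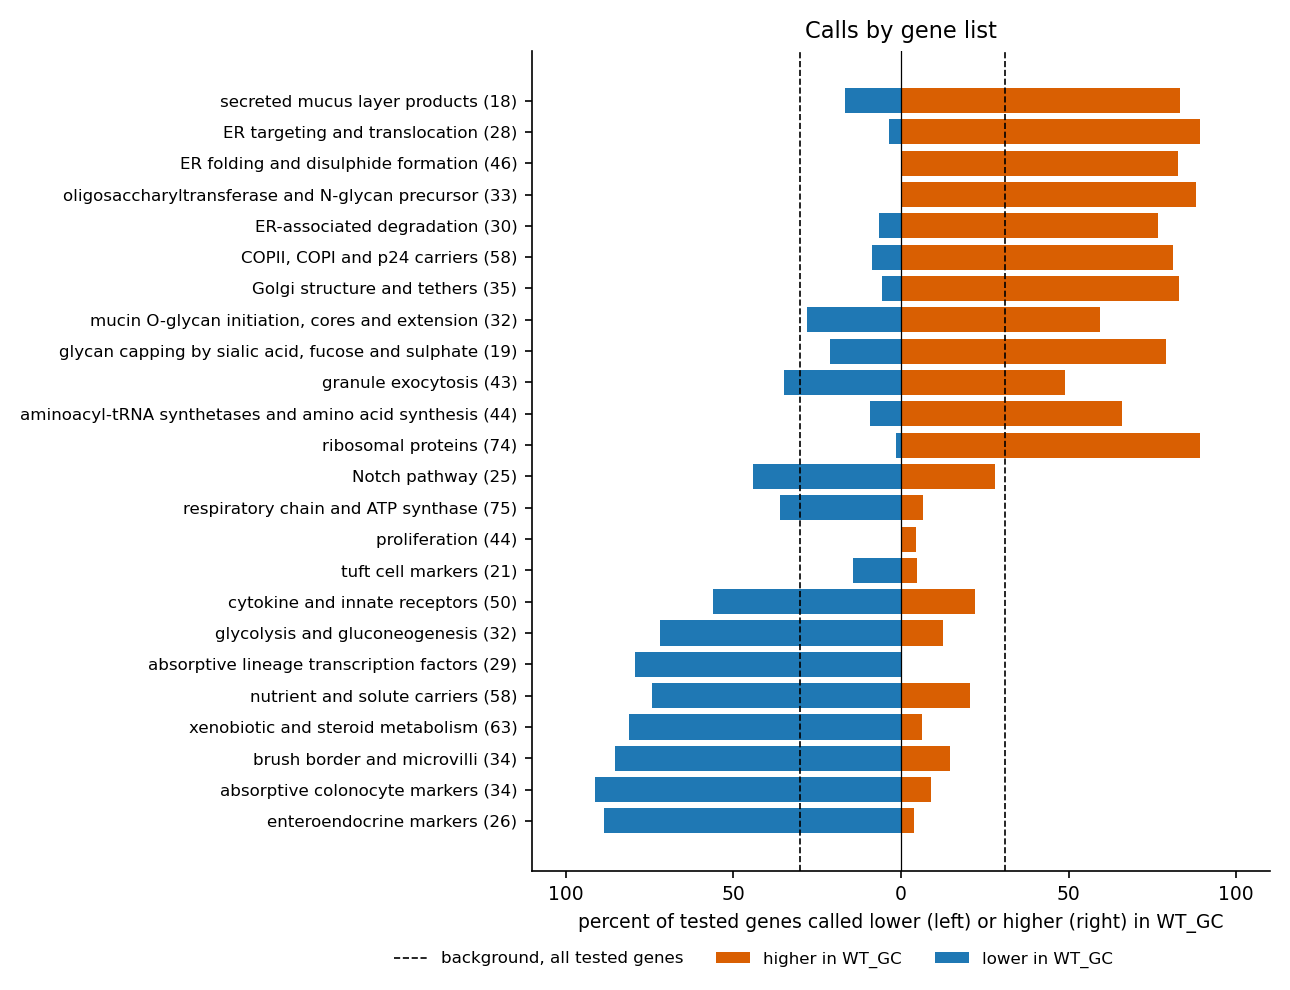
Percent of the tested genes of 24 gene lists that were higher (orange, to the right) or lower (blue, to the left) in WT_GC, with the number of tested genes beside each name. Dashed lines mark the background over all 12915 tested genes, 31.0% higher and 30.2% lower; the secretory lists lie to the right and the absorptive, xenobiotic and enteroendocrine lists to the left.

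The enzymes that build mucin O-glycans were mostly on the goblet cell side. Of 32 tested genes that start, branch and extend these chains, 19 were higher in WT_GC, a share above the background of 31.0%. The 9 that were lower made up a share near the background of 30.2%. A4gnt, which adds the terminal N-acetylglucosamine known from gland mucins, was at 39.5, 38.8, 42.6 and 46.9 CPM in the WT_GC libraries and 0.1902, 0, 0.145 and 0.0734 CPM in the WT_EC libraries (log2 8.50 ± 0.27, adjusted p = 1.91e-13), so the gene was close to 0 in every WT_EC library. B3gnt6, which makes the core 3 structure of colonic mucins, was at 58.9 ± 6.13 against 1.29 ± 0.323 CPM, and C1galt1 and its chaperone C1galt1c1, which make core 1, at 392 against 130.01 CPM and 147 against 29.4 CPM. Among the initiating enzymes, Galnt5 was at 219 against 11.9 CPM, Galnt12 at 327 against 57.4 CPM and Galnt7 at 939 against 226 CPM. These members were named by their values and do not stand for the whole family. On the side of WT_EC were Gcnt2, which branches blood group I chains, at 1.37 ± 0.328 against 56.7 ± 11.9 CPM (log2 -5.39 ± 0.21, adjusted p = 2.10e-13), B4galt1 at 46.97 against 239 CPM and B3gnt2 at 44.6 against 162 CPM, enzymes that extend chains of galactose and N-acetylglucosamine.

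Genes that cap the chain ends were mostly on the goblet cell side as well. Of 19 genes that cap glycans, 15 were higher in WT_GC, a share above the background, and 4 lower, a share below it. St6gal1, which attaches sialic acid in an alpha-2,6 linkage to N-glycans, was at 564, 457, 642 and 529.6 CPM in the WT_GC libraries and 3.23, 2.37, 2.98 and 3.23 CPM in the WT_EC libraries (log2 7.53 ± 0.13, adjusted p = 1.52e-18). Its counterparts for the alpha-2,3 linkage, St3gal1 and St3gal4, were lower at 1.68 ± 0.377 against 31.3 ± 7.63 CPM and 112 against 374 CPM. Sulphation genes on the goblet cell side were Gal3st2, at 58.3 ± 11.3 against 0.477 ± 0.127 CPM, and Chst4, at 196 against 29.5 CPM. The fucosyltransferases Fut2, Fut4 and Fut8 were at 329.8 against 85.99 CPM, 333 against 88.4 CPM and 394 against 121 CPM. The supply of activated sugars was higher in WT_GC for 27 of 38 genes and lower for 8. Gfpt1, which starts the synthesis of amino sugars, was at 2107 ± 92.8 against 1052 ± 78.8 CPM and Gne, which starts that of sialic acid, at 1288 ± 69.8 against 625 ± 21.1 CPM. Lower genes were Ugdh, which makes the glucuronic acid donor also used in detoxification, at 59.8 ± 5.4998 against 343 ± 23.1 CPM, and Slc26a2, a sulphate transporter, at 212 ± 13.96 against 1084 ± 99.8 CPM.

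Of 43 genes of granule release 21 were higher, a share above the background, and 15 lower, a share near it. Sytl2, an effector of Rab27 on granules, was at 469, 399, 415 and 431 CPM in the WT_GC libraries and 9.32, 9.403, 8.9995 and 10.6 CPM in the WT_EC libraries (log2 5.48 ± 0.20, adjusted p = 3.28e-13). Rab27a was at 130.3 ± 13.8 against 10.5 ± 0.549 CPM, Rab3d, a granule-bound GTPase, at 427 ± 13.5 against 91.7 ± 7.55 CPM, and Syt7, a calcium sensor of exocytosis, at 233 ± 11.01 against 18.6 ± 1.04 CPM. These 4 genes had no overlap between the groups. Myrip, which links granules with Rab27 to myosin, was at 8.34 ± 1.51 against 0.0705 ± 0.0594 CPM. Lower in WT_GC were Myo5b and Stx3, which serve traffic to the apical membrane, at 265 against 524 CPM and 54.6 against 106 CPM, the endosomal and granule SNARE Vamp8 at 71.2 against 107 CPM and the granule priming factor Unc13d at 7.26 against 17.9 CPM.

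Transcription factors followed the lineages only in part. Among secretory factors 12 of 23 were higher, a share above the background, and 7 lower, a share at it. Spdef was at 280.00, 306, 281 and 315 CPM in the WT_GC libraries and 2.54, 1.82, 3.77 and 2.64 CPM in the WT_EC libraries (log2 6.77 ± 0.21, adjusted p = 2.04e-14), Gfi1, a repressor downstream of Atoh1, at 41.1 ± 5.57 against 0.346 ± 0.1698 CPM, and Bhlha15, the secretory-cell factor Mist1, at 9.11 ± 1.19 against 0.418 ± 0.102 CPM. No WT_EC library reached any WT_GC library for these 3. Foxa3 was at 159 against 21.7 CPM and Foxa2 at 73.3 against 24.1 CPM. Lower members of the list were the enteroendocrine factor Neurod1, at 0.9402 against 5.28 CPM, and the differentiation factor Klf4, at 679 ± 108 against 1279 ± 204 CPM (log2 -0.91 ± 0.11, adjusted p = 1.16e-06). Of 29 absorptive factors, 0 were higher by edgeR's test (1 with upper-quartile factors) and 23 were lower, with a median of -0.81. Hnf4a, a nuclear receptor of enterocyte genes, was at 377, 399, 369.5 and 405 CPM in the WT_GC libraries and 1023, 1193, 977 and 1147 CPM in the WT_EC libraries, Vdr, the vitamin D receptor, at 125 ± 16.8 against 393 ± 33.9 CPM, and Prdm1 at 0.842 ± 0.2896 against 9.53 ± 0.8098 CPM. For these 3 genes WT_GC lay wholly below WT_EC. Cdx1, a factor of intestinal identity, and Sox9, a factor of crypt cells, did not pass at 191 against 196 CPM and 66.8 against 64.8 CPM.

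In the Notch pathway, 7 of 25 tested genes were higher and 11 lower, with a median of -0.066 that became 0.018 with upper-quartile factors. These shares were near the background on the higher side and above it on the lower side. The ligands Dll1 and Dll4 were at 74.6 ± 7.61 against 10.2 ± 0.346 CPM and 54.6 ± 7.02 against 3.75 ± 0.398 CPM, whereas the ligand Jag1 was lower at 33.2 against 43.4 CPM. The receptors Notch1 and Notch2 were lower, at 29.5 ± 6.02 against 62.5 ± 4.66 CPM and 13.3 ± 2.21 against 25.6 ± 2.67 CPM, and Notch4 was higher, at 32.5 against 7.67 CPM. Hes1, the transcriptional target of the pathway, was lower at 116 ± 21.5 against 190.2 ± 12.8 CPM (log2 -0.71 ± 0.18, adjusted p = 0.00227), and the inhibitor Numb at 43.97 against 93.8 CPM. The fringe enzyme Lfng, which changes how receptors answer ligands, was higher at 39.5 against 8.04 CPM.

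Of 21 genes of the EGF receptor family, its ligands and feedback genes, 6 were higher and 11 lower. Egf itself was at 47.8, 42.2, 44.8 and 46.3 CPM in the WT_GC libraries and 1.77, 1.66, 1.74 and 1.39 CPM in the WT_EC libraries (log2 4.77 ± 0.20, adjusted p = 1.64e-13). The ligands Areg, Hbegf and Ereg were lower, at 108 ± 34.3 against 761 ± 167 CPM, 174 ± 59.6 against 779.5 ± 134 CPM and 0.974 against 16.1 CPM. Egfr did not pass at 115 against 116 CPM, and its partner Erbb3 was lower at 252 against 568 CPM. Among BMP and TGF-beta genes 4 of 24 were higher and 15 lower, among them the ligands Bmp2 at 23.8 ± 2.301 against 111 ± 20.9 CPM and Bmp3 at 13.3 against 75.3 CPM and the target gene Id1 at 75.7 ± 9.83 against 179 ± 26.995 CPM. Wnt and crypt-base genes were 4 higher and 10 lower of 24. The Eph receptors Ephb2 and Ephb3 were higher at 124 against 85.6 CPM and 73.3 against 57.02 CPM and the ephrin ligands Efna1 and Efnb2 lower at 38.9 against 143 CPM and 101 against 272 CPM.

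Among 50 cytokine and innate receptor genes 11 were higher and 28 lower. Ccl6, a chemokine, was at 1321, 1263, 1688 and 1342 CPM in the WT_GC libraries and 7.04, 5.85, 10.1 and 7.05 CPM in the WT_EC libraries (log2 7.54 ± 0.19, adjusted p = 1.67e-15), and Ccl9, another chemokine, was at 36.6 ± 4.89 against 2.64 ± 0.381 CPM. Il13ra1 and Il4ra, which form the receptor for the type 2 cytokines, were higher at 462 ± 34.3 against 135 ± 4.25 CPM and 59.6 against 29.1 CPM. The receptor of interleukin 22, Il22ra1, was lower at 45.5 ± 4.85 against 164 ± 13.1 CPM, as were the interleukin genes Il18 at 34.5 ± 6.596 against 150.4 ± 13.6 CPM and Il1b at 0.153 ± 0.159 against 8.69 ± 2.198 CPM and the inflammasome sensor Nlrp6 at 48.2 ± 6.33 against 218 ± 10.1 CPM. Every WT_GC library lay below every WT_EC library for these 4. The toll-like receptors Tlr2 and Tlr4 were lower at 6.05 against 16.3 CPM and 38.8 against 84.8 CPM.

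Guanylin signalling, which controls fluid secretion through cyclic GMP, was 3 higher and 8 lower of 11 genes. The 2 hormones were in opposite fractions. Guca2a, guanylin, was at 252, 226, 280.4 and 260.2 CPM in the WT_GC libraries and 1179, 1360.5, 1168 and 1206 CPM in the WT_EC libraries, and Guca2b, uroguanylin, at 23.5, 26.4, 31.7 and 27.7 CPM and 4.69, 3.71, 4.14 and 4.55 CPM. Their receptor Gucy2c was close to even at 355 against 391 CPM, a called log2 difference of -0.14 (adjusted p = 0.0286) that did not pass with upper-quartile factors (-0.057, adjusted p = 0.361) or without library 9 or 13 of WT_GC (adjusted p = 0.0850 and 0.0747). Of the enzymes that break down cyclic GMP, Pde2a was at 446 ± 16.5 against 30.4 ± 6.11 CPM and Pde9a at 71.1 ± 6.13 against 251 ± 10.2 CPM.

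Calcium and secretagogue signalling was 16 higher and 15 lower of 40, both shares somewhat above the background. Receptors for acetylcholine and nucleotides were on both sides: Chrm1 and Chrm3 were higher at 13.6 against 1.98 CPM and 3.41 against 0.452 CPM and P2ry4 at 23.2 ± 6.84 against 0.349 ± 0.1899 CPM, while P2ry2 was lower at 4.51 ± 0.689 against 26.8 ± 3.91 CPM and the histamine receptor Hrh1 at 8.29 against 34.1 CPM. The store channel Itpr1 was at 199 ± 32.4 against 31.5 ± 1.76 CPM, whereas Itpr3 was lower at 302 against 356 CPM, a call lost with upper-quartile factors (adjusted p = 0.0991). Atp2a3, the calcium pump of the ER, was at 2464, 2470.2, 2551 and 2415 CPM in the WT_GC libraries and 860.03, 819, 811 and 769.7 CPM in the WT_EC libraries (log2 1.60 ± 0.067, adjusted p = 2.10e-13), and its relative Atp2a2 at 407 against 329 CPM. The store sensor Stim2 was higher at 136 against 32.5 CPM and Stim1 lower at 140.3 against 186 CPM.

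Ion transport genes were found on both sides. Of 40 tested genes of chloride, bicarbonate and potassium transport, 16 were higher and 22 lower, both shares above the background. Of 25 genes of sodium and water absorption, 7 were higher, a share near the background, and 16 lower, a share above it. Best2, a bicarbonate-conducting anion channel of goblet cells, was at 250.02, 232, 334 and 213 CPM in the WT_GC libraries and 0.697, 0.7902, 1.16 and 0.294 CPM in the WT_EC libraries (log2 8.44 ± 0.23, adjusted p = 5.03e-15), so that all WT_EC libraries were near or under 1 CPM. Slc12a8, a member of the cation-chloride cotransporter family, was at 477 ± 12.6 against 3.16 ± 1.03 CPM (log2 7.24 ± 0.16, adjusted p = 5.65e-17) and Slc12a2, which loads chloride for secretion, at 1314 ± 159 against 549.8 ± 49.7 CPM. The potassium channels Kcnma1 and Kcnh3 were at 130.4 ± 4.32 against 2.602 ± 0.508 CPM and 38.5 against 1.88 CPM, and the channel subunit Kcne2 at 5.54 against 0.0935 CPM. Ano7 was at 109.6 against 3.05 CPM and the calcium-activated chloride channel Ano1 lower at 249.6 ± 11.99 against 445 ± 17.5 CPM. The chloride channel of secretion, Cftr, was lower in WT_GC at 161 ± 16.2 against 317 ± 25.8 CPM (log2 -0.97 ± 0.11, adjusted p = 2.52e-07).

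Absorption was on the other side. Slc26a3, the chloride-bicarbonate exchanger, was at 52.6, 45.3, 44.3 and 77.9 CPM in the WT_GC libraries and 1824, 2029, 2108 and 2319 CPM in the WT_EC libraries (log2 -5.24 ± 0.19, adjusted p = 1.37e-13). Aqp8, a water channel, was at 23.6 ± 5.05 against 1227 ± 57.7 CPM, Slc9a2, a sodium-hydrogen exchanger, at 30.7 ± 3.404 against 535 ± 45.2 CPM, and the chloride channel Clcn2 at 40.1 against 368 CPM. The carbonic anhydrases Car1 and Car4 were lower by log2 -4.64 and -5.72, and Car8 was higher at 31.4 against 9.66 CPM. Subunits of the epithelial sodium channel did not move together: Scnn1a was lower at 77.2 ± 6.91 against 213 ± 11.2 CPM, while Scnn1b and Scnn1g were higher at 40.9 ± 7.34 against 2.42 ± 0.419 CPM and 12.01 ± 6.99 against 1.52 ± 0.456 CPM. Scnn1g was among the genes that varied most among WT_GC libraries, from 4.13 to 21.1 CPM. Hsd11b2, which shields the mineralocorticoid receptor from cortisol-like hormones, was higher at 458 ± 80.1 against 83.8 ± 7.89 CPM and the receptor Nr3c2 lower at 235 against 370.00 CPM.

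Carriers for nutrients and solutes were lower in WT_GC for 43 of 58 genes and higher for 12, with a median of -1.39. Slc15a1, the peptide carrier, was at 8.81 ± 3.03 against 393 ± 51.4 CPM (log2 -5.51 ± 0.25, adjusted p = 1.74e-11), Slc34a2, a phosphate carrier, at 4.87 ± 1.4997 against 259 ± 29.3 CPM, and Slc20a1, another phosphate carrier, at 111 ± 12.2 against 1444 ± 165 CPM. The short-chain fatty acid carriers Slc16a1 and Slc5a8 were at 155 against 605 CPM and 204 against 609.8 CPM, and the efflux pumps Abcb1a and Abcg2 at 228 against 1146 CPM and 12.98 against 177 CPM. On the goblet cell side were the zinc carriers Slc39a7 at 281 ± 12.9 against 109 ± 6.22 CPM, Slc39a8 at 105 against 34.4 CPM and Slc30a7 at 163 against 72.8 CPM, and the amino acid carriers Slc43a2 and Slc38a1 at 19.8 against 4.01 CPM and 148 against 58.2 CPM. Over all 248 tested genes with an Slc symbol 84 were higher (33.9%) and 108 lower (43.55%). Over 34 with an Abc symbol 9 were higher (26.5%) and 21 lower (61.8%). The higher shares were near or under the background of 31.0%, and the lower shares were above that of 30.2%.

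**Figure D4:**
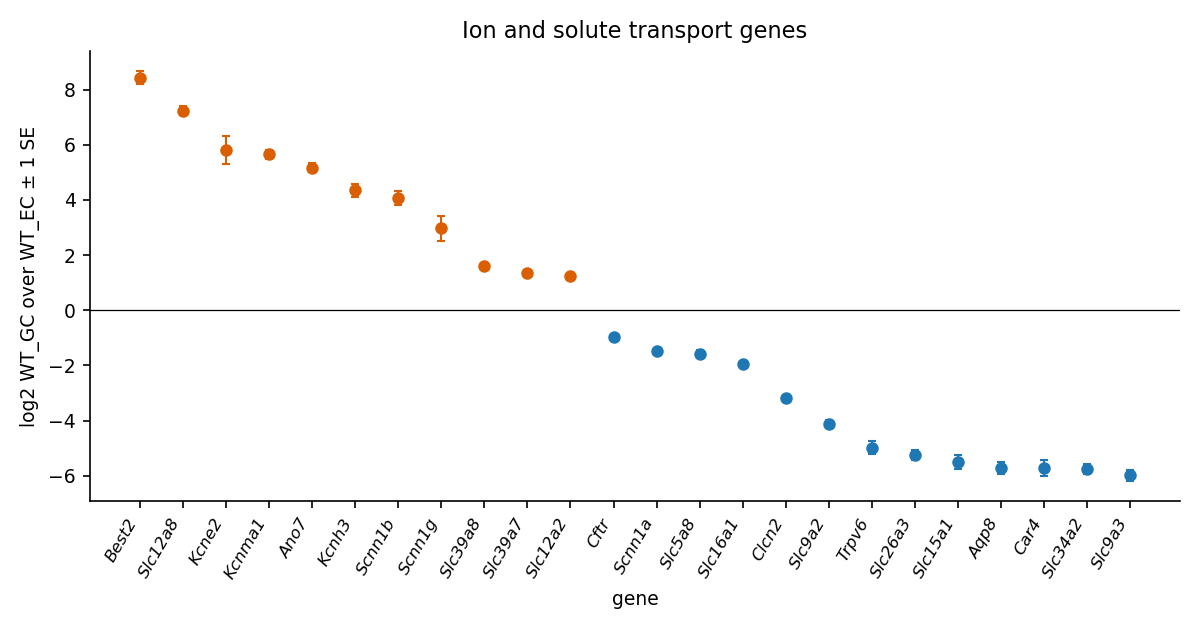
Log2 difference of WT_GC over WT_EC for 24 ion and solute transport genes named in the text, with bars of 1 approximate standard error from edgeR's fit over 16 libraries; orange marks a higher and blue a lower call. Best2, Slc12a8 and Kcne2 stand at the upper end and Slc9a3, Slc34a2, Car4 and Aqp8 at the lower end.

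Trpv6, the calcium channel of the brush border, was at 6.196, 5.02, 2.67 and 7.56 CPM in the WT_GC libraries and 183, 166, 136 and 185 CPM in the WT_EC libraries, and Alpi, intestinal alkaline phosphatase, at 0.799, 0.6698, 0.318 and 0.979 CPM and 30.7, 29.4, 21.5 and 32.2 CPM. Both were lower in WT_GC without overlap (log2 -4.99 ± 0.24, adjusted p = 1.99e-11 for Trpv6 and log2 -5.39 ± 0.25, adjusted p = 9.18e-13 for Alpi). Their promoters, like those of 16 other genes at least 2-fold lower, hold CAAAGTCCA, the motif of the nuclear receptor Hnf4a, which was present on either strand in 57 of 10253 tested genes with a promoter (0.556%), in 18 of the 1238 at least 2-fold lower (1.45%) and in 4 of the 874 at least 2-fold higher (0.458%). The 250 bases upstream of both are shown with the match in capitals, as examples from the brush border:
Trpv6, chr6:41636406-41636655, − strand: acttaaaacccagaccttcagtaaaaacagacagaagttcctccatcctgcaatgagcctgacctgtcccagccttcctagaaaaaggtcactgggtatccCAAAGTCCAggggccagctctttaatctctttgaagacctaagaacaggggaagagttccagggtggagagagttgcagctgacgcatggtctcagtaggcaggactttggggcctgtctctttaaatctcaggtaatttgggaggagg
Alpi, chr1:87101607-87101856, − strand: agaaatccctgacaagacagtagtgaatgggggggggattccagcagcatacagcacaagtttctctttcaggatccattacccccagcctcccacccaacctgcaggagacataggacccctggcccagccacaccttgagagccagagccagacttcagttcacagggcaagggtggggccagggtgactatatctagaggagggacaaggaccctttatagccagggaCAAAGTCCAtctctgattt

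Metabolic gene groups divided by pathway. Of 63 genes of xenobiotic and steroid metabolism 51 were lower in WT_GC and 4 higher, with a median of -1.08. Cyp2c55 was at 32.2 ± 10.8 against 1037 ± 134 CPM (log2 -5.02 ± 0.23, adjusted p = 1.41e-11), the carboxylesterase Ces2c at 8.36 ± 1.64 against 295 ± 16.6 CPM and the sulphotransferase Sult1b1 at 30.95 against 234 CPM; the Cyp2c and Ces2 families hold near-identical copies whose reads may be shared. Glycolysis was lower for 23 of 32 genes and higher for 4, including Pkm at 301 ± 10.7 against 1072 ± 23.5 CPM, Ldha at 421 ± 32.6 against 1133 ± 40.6 CPM and the muscle form Eno3 at 22.8 against 211 CPM. Pck1, which starts glucose formation, was higher at 481 ± 33.6 against 249.6 ± 27.3 CPM. Fatty acid oxidation was 7 higher and 22 lower of 42, with the carnitine carrier Slc25a20 at 39.6 ± 1.83 against 227 ± 32.7 CPM, and Acsl1, which activates fatty acids, was higher at 134 ± 15.8 against 30.2 ± 4.804 CPM.

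In the respiratory chain and ATP synthase 5 of 75 genes were higher and 27 lower, none by as much as 2-fold, and the median was -0.10. With upper-quartile factors the split was 9 and 16, and without library 14 of WT_EC 8 were higher. In the citrate cycle 7 of 27 were higher, 0 of them by 2-fold, and 6 lower, 5 of them by 2-fold or more. Both shares were below the background of all tested genes. The citrate synthase gene Cs was lower at 401 ± 10.8 against 964 ± 17.4 CPM and Idh2 higher at 171 against 92.2 CPM. Genes that feed protein synthesis stood on the goblet cell side. Of 44 genes of tRNA charging and amino acid synthesis 29 were higher and 4 lower, among them Asns at 93.3 ± 4.95 against 23.6 ± 2.33 CPM, Pycr1 at 10.9 ± 1.06 against 0.745 ± 0.181 CPM and Wars at 269.6 ± 18.7 against 89.04 ± 7.55 CPM. Ribosomal protein genes were higher for 66 of 74 and lower for 1, by small amounts (median 0.33, none 2-fold), and held 4.06 ± 0.155% of gene counts in WT_GC and 3.08 ± 0.238% in WT_EC (SD, n = 4). Cholesterol and fatty acid synthesis was 18 higher and 5 lower of 39, with Hmgcs1 at 1246 ± 275 against 685 ± 44.4 CPM.

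Of 534 tested noncoding genes 128 were higher and 123 lower (23.97% and 23.03%, against 31.0% and 30.2% of all tested genes). The abundant nuclear RNAs Malat1 and Neat1 were lower in WT_GC, Malat1 at 11176 ± 871 against 19367 ± 2450.4 CPM (log2 -0.79 ± 0.11, adjusted p = 4.47e-06) and Neat1 at 1333 ± 137 against 2147 ± 445 CPM, and so was Rpph1, the RNA of RNase P, at 4522 ± 423 against 6707 ± 949 CPM. Of 52 tested small nucleolar RNA genes 3 were higher, a share below the background, and 15 lower, a share near it. Their counts come from fragmented total RNA and hold host transcripts as well. The lncRNA 5430427M07Rik was at 2.16 ± 0.625 against 43.7 ± 4.06 CPM. The transcribed pseudogene 9030619P08Rik had 1812 counts in WT_GC and 3 in WT_EC, a ratio of 563 (192 to 2732).

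The maternally expressed RNAs of the imprinted Dlk1 to Mirg region stood out. Meg3 was at 111, 98.1, 118 and 113 CPM in the WT_GC libraries and 0.317, 0.158, 0.435 and 0.294 CPM in the WT_EC libraries (log2 8.46 ± 0.20, adjusted p = 1.87e-16), and Rian, which hosts small nucleolar RNAs, at 186, 198, 201 and 206 CPM and 0.3803, 0.474, 0.2903 and 0.0734 CPM (log2 9.30 ± 0.24, adjusted p = 9.31e-16). Mirg, a microRNA host transcript, had 333 counts over the WT_GC libraries and 0 over the WT_EC libraries, at least 103.5-fold higher against a floor of 3 counts over the group. The region chr12:109452823-109749460 (GRCm38) held 60 of the counted genes that had a position in the reference annotation. Counted genes without a position could not be assigned to it, so the sums may miss members. The region's 3 placed lncRNA genes held 18713 counts in WT_GC and 34 in WT_EC. Its 4 placed small nucleolar RNA genes held 108 and 0, and its 51 placed microRNA genes 500 and 2. None of these small RNA genes had enough counts to be tested singly. The 51 microRNA genes had 124, 146, 132 and 98 counts in the WT_GC libraries, spread over 50 of them, and 2, 0, 0 and 0 in the WT_EC libraries. The protein-coding Dlk1, a Notch-related ligand expressed from the other parental chromosome, had 230, 401, 241 and 262 counts in WT_GC and 6, 3, 1 and 0 in WT_EC (log2 6.67 ± 0.36, adjusted p = 6.88e-12). Rtl1, the other protein-coding gene counted in the region, had 2 counts and 0. MicroRNA genes were counted as hairpin loci in total RNA, so these counts do not measure mature microRNAs.

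**Figure D5:**
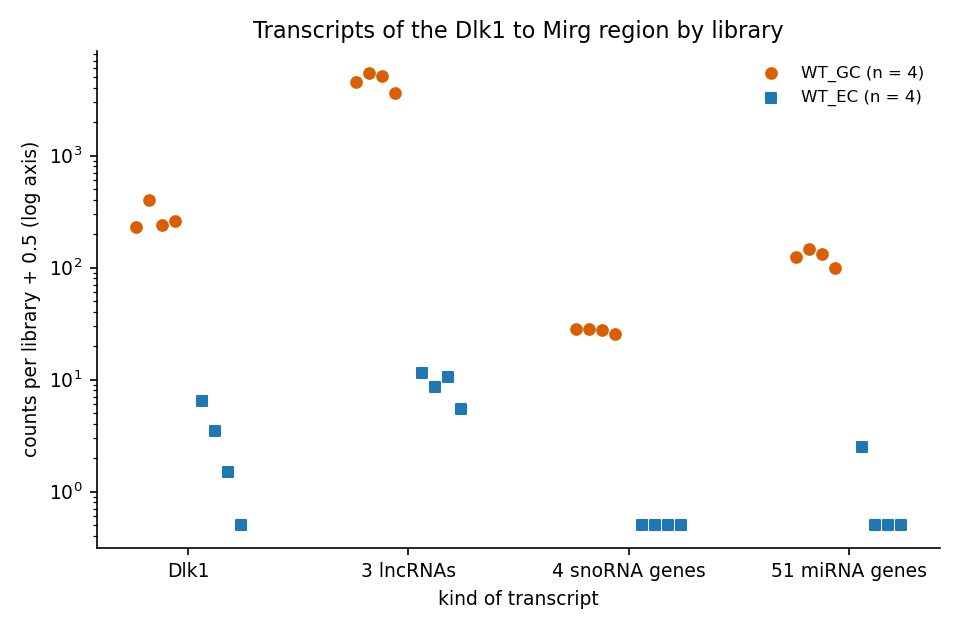
Counts per library over 4 kinds of transcript in the Dlk1 to Mirg region (log axis, 0.5 added): Dlk1, the 3 lncRNAs, the 4 small nucleolar RNA genes and the 51 microRNA genes; orange circles are WT_GC and blue squares WT_EC libraries. All 4 WT_GC libraries lie above all 4 WT_EC libraries in each, and the 4 small nucleolar RNA genes shown have no count in WT_EC. Genes without a position in the reference annotation are not included.

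The mCherry-negative fraction held the absorptive programme and more. Of 34 tested colonocyte markers 31 were lower in WT_GC and 3 higher, with a median of -3.49, and they made up 0.594 ± 0.0309% of the gene counts of WT_GC and 3.37 ± 0.146% of those of WT_EC. Lypd8, a secreted protein that keeps flagellated bacteria from the surface, was at 1194, 1061, 1221 and 1289.96 CPM in the WT_GC libraries and 6690.02, 7809, 7238 and 7563 CPM in the WT_EC libraries. Krt20, a keratin of mature surface cells, was at 78.8 ± 5.24 against 1183 ± 77.01 CPM, Emp1, a membrane protein, at 27.7 ± 7.498 against 1269 ± 215 CPM, and Prdx6, a peroxidase, at 218 ± 20.8 against 2916 ± 201 CPM. The groups did not overlap for any of these 4 genes. The 3 exceptions were Guca2b, described above, and the peptidases Dpp4 and Anpep, higher in WT_GC at 114 ± 1.64 against 69.4 ± 7.22 CPM and 10.6 ± 2.02 against 2.07 ± 0.562 CPM. Of the brush border genes 29 of 34 were lower and 5 higher. The metalloprotease Mep1a was at 28.8 ± 5.03 against 569 ± 16.1 CPM and the microvillus cadherin Cdhr2 at 252 ± 17.6 against 1353 ± 58.7 CPM, while Xpnpep2, another peptidase, was higher at 15.2 ± 1.82 against 0.728 ± 0.194 CPM. Junction and keratin genes were 29 lower and 5 higher of 39, with Krt8 at 2871 ± 213 against 6269 ± 419.6 CPM, Krt7 higher at 314 ± 13.2 against 85.8 ± 4.61 CPM, Cldn23 lower at 96.4 against 342 CPM and Cldn15 higher at 250.2 against 68.1 CPM.

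Enteroendocrine genes were also held mainly by the mCherry-negative fraction, with 23 of 26 tested markers lower in WT_GC and 1 higher. Their summed level was 197.2 to 243.2 CPM in the WT_GC libraries and 745 to 977 CPM in the WT_EC libraries. Chgb, a granin of hormone granules, was at 39.6, 59.4, 43.7 and 46.99 CPM in the WT_GC libraries and 293, 339.6, 396 and 331 CPM in the WT_EC libraries, Tph1, which makes serotonin, at 5.54 ± 0.6704 against 53.98 ± 2.47 CPM, and the hormone genes Gcg and Pyy at 10.2 against 50.2 CPM and 10.7 against 49.6 CPM. The exception was the prohormone convertase Pcsk1, at 28.8 ± 2.63 against 7.34 ± 1.68 CPM. Most tuft cell genes were not called: 17 of 21 did not pass, 1 was higher (0 without library 12 or 17 of WT_EC) and 3 lower. Their sum was 81.3 to 106.3 CPM in WT_GC and 95.8 to 160.1 CPM in WT_EC. In each WT_GC library this sum was lower than in the WT_EC library with the neighbouring number. The labels do not state such a pairing, and it was not tested. Dclk1, the usual tuft cell marker, was at 17.6 ± 3.59 against 21.2 ± 9.49 CPM, and Hpgds, a prostaglandin synthase, was lower at 4.38 against 18.5 CPM.

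Markers of cells outside the epithelium were low in both fractions, and their summed levels were lower in WT_GC. Of 34 immune markers found in the files 12 were tested, 9 of them lower and 2 higher, and the summed level was 8.99 to 11.1 CPM in WT_GC and 19.7 to 28.1 CPM in WT_EC; 9 of the 34 had no count in any WT_GC library and 1 in any WT_EC library. Ptprc, the leukocyte antigen CD45, was at 1.603 ± 0.263 against 5.69 ± 0.5095 CPM. Stromal, endothelial, muscle and neural markers summed to 30.5 to 38.5 CPM in WT_GC and 43.3 to 61.97 CPM in WT_EC. Of the 9 tested, 5 were lower and 2 higher. The count of 2 higher immune markers was 1 with DESeq2 size factors, DESeq2's test or limma-voom and 0 without library 10 or 14 of WT_EC or library 18 of WT_GC. With no filter on low counts 18 immune markers were lower, and in a fit of the 8 WT libraries alone 5 were. Genes of MHC class II and of the interferon response were lower in WT_GC as the immune markers were, and the part of immune cells in them was not tested. Of 23 genes of antigen presentation 12 were lower and 3 higher, including H2-Aa at 0.259 against 6.76 CPM and Cd74 at 0.951 against 12.1 CPM, whose reads in the H2 family may be shared between near-identical copies. Of 41 interferon-stimulated genes 24 were lower and 2 higher, with Irf7 at 22.7 ± 2.47 against 118 ± 8.52 CPM, Oasl2 at 3.29 against 22.6 CPM and Ifit1 at 1.36 against 19.98 CPM.

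Along the crypt axis, markers of deep crypt secretory and Paneth cells were on the goblet cell side, 15 of 16 higher and 1 lower, and held 1.67 ± 0.255% of gene counts in WT_GC against 0.0687 ± 0.0130% in WT_EC. Several of them are mucus products counted above. Kit, a receptor tyrosine kinase, was at 293, 271, 278 and 270.02 CPM in the WT_GC libraries and 8.18, 9.17, 12.9 and 9.76 CPM in the WT_EC libraries, and Cd24a, a surface protein, at 829, 914, 1007 and 963 CPM and 198, 192, 282 and 221 CPM. Both divided the fractions without overlap. The Paneth cell lysozyme Lyz1 was only at 2.01 against 0.0709 CPM. Stem cell genes were 6 higher and 4 lower of 19, shares near the background on the higher side and below it on the lower side. Among them Lgr5, the stem cell receptor, was lower at 8.74 ± 1.72 against 14.5 ± 2.81 CPM. Of 44 proliferation genes 2 were higher (Ccnd2 and Cdk2), 0 lower by edgeR's test and 42 did not pass. Their sum was 2421 to 3275 CPM in WT_GC and 2083 to 3008 CPM in WT_EC. In each WT_GC library it was higher than in the WT_EC library with the neighbouring number, a pairing not stated by the labels and not tested. Mki67, the usual proliferation marker, was at 470.01 ± 66.7 against 396 ± 58.2 CPM and Top2a, a topoisomerase of dividing cells, at 314 ± 48.9 against 262 ± 62.6 CPM. With upper-quartile factors 4 of the 44 were higher, Mki67 among them (adjusted p = 0.0354), and Mki67 also passed without library 18 of WT_GC (adjusted p = 0.0439).

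Genes with very large counts outside these lists named by their difference in CPM included Klk1, a kallikrein protease, at 2462 ± 169 against 514 ± 46.7 CPM, Oit1 at 2792 ± 140.1 against 841 ± 55.3 CPM and the translation factor Eef1a1 at 8884 ± 581 against 5963 ± 462 CPM, higher in WT_GC, and Ahnak, a scaffold protein, at 1353 ± 102 against 5287 ± 321 CPM, Actb, beta-actin, at 4022 ± 549 against 6278 ± 401 CPM and Dmbt1, a secreted scavenger protein, at 1026 ± 42.5 against 5316 ± 353 CPM, lower. Nov, a matricellular signalling protein now named Ccn3, was at 1828, 1461, 1923 and 1843 CPM in the WT_GC libraries and 3.93, 4.03, 8.201 and 4.99 CPM in the WT_EC libraries (log2 8.38 ± 0.26, adjusted p = 6.08e-14), a level among the secreted products of WT_GC. Sdr16c6, an oxidoreductase, had 410 counts in WT_GC and 0 in WT_EC, at least 127.4-fold higher against a floor of 3 counts over the group, and Tpsg1, a tryptase, was at 115 ± 10.1 against 0.312 ± 0.132 CPM. Mal, an apical transport protein, and Prss30, a membrane serine protease, were lower at 0.935 ± 0.153 against 53.3 ± 3.49 CPM and 7.51 ± 2.11 against 388 ± 44.5 CPM.

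Among genes of at least 10 CPM, those with the largest spread of log2 CPM were Edn1, Egr2, Plaur, Tnf, Cxcl10 and Scnn1g in WT_GC and Abca12, Glipr1, Sprr1a, Egr2, Plaur and Tnf in WT_EC. Egr2, an immediate early gene, was at 83.1, 80.9, 27.5 and 104 CPM in the WT_GC libraries and 86.7, 117, 49.9 and 125 CPM in the WT_EC libraries. Plaur, the urokinase receptor, was at 67.4, 61.8, 20.02 and 73.96 CPM and 38.4, 48.7, 17.5 and 47.8 CPM, and Tnf, a cytokine, at 25.6, 37.2, 9.66 and 42.99 CPM and 18.8, 24.3, 8.93 and 18.6 CPM. Libraries 13 of WT_GC and 14 of WT_EC were the lowest of their groups for these 3 genes, and the groups overlapped. Set beside the WT_EC library with the neighbouring number, each WT_GC library was higher for Plaur and Tnf and lower for Egr2. The labels do not state such a pairing, and it was not tested. Without library 13, Tnf and Plaur passed as higher in WT_GC (adjusted p = 0.00301 and 0.0176). Of 30 genes of dissociation and stress response 5 were higher and 8 lower in WT_GC, both shares under the background of all tested genes. With upper-quartile factors the split became 9 and 6. Without library 13 of WT_GC 8 were higher, and without library 14 of WT_EC 14 were lower. Fos, an immediate early gene, was at 2831 ± 669 against 3806 ± 576 CPM, Hspa1a, a heat shock protein whose reads may be shared with its copy Hspa1b, at 272 ± 17.7 against 170.02 ± 10.8 CPM, and Egr1 did not pass at 443 against 609.9 CPM but passed as lower without library 14 of WT_EC (adjusted p = 0.0464).

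The difference between fractions depended on the genotype label for 1231 of the 12915 tested genes (9.53%) by edgeR's interaction test, 601 with a larger WT_GC-over-WT_EC log2 difference under the WT label and 630 with a smaller one. Of the genes called in WT_GC against WT_EC, 1018 were among them, and in 798 of these the difference was smaller in size under the SpdefKO label. In 294 of the 1018 the sign was opposite under that label. These genes were chosen by their call in the WT libraries, which by itself favours a larger difference there. No conclusion on genotype is drawn from the 798. B3gnt6 was the clearest case among the glycosyltransferases named: its log2 difference was 5.50 in the WT libraries and 0.78 in those labelled SpdefKO (interaction log2 4.72 ± 0.27, adjusted p = 7.26e-09). Creb3l4 had log2 5.41 and 1.54 (interaction log2 3.87 ± 0.32, adjusted p = 1.92e-06), and Casc4 4.75 and 0.73 (interaction log2 4.01 ± 0.26, adjusted p = 3.04e-08). The other way, the ion channel regulator Abcc8 had -0.90 and 2.75 (interaction log2 -3.65 ± 0.34, adjusted p = 2.95e-06) and the receptor Ret -0.76 and 2.21 (interaction log2 -2.98 ± 0.30, adjusted p = 4.39e-06). The count of 601 was 387 without library 4 of SpdefKO_EC, 394 without library 12 of WT_EC and 388 without library 17 of WT_EC.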

How the data were processed

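The 16 libraries of mouse distal colon epithelium were made from total RNA with TruSeq Stranded Total RNA chemistry and Ribo-Zero Gold depletion, per the labels' protocols. The deposited table holds read counts per gene; build mm10, HTSeq 0.6.1p1, STAR 2.4.0f, DESeq2 1.14 and FastQC 0.11.2 stand in the submitters' processing notes. Neither the annotation nor the strand setting of the counting is stated. The authors' normalized signal values equal those counts divided by 1 size factor per library and served only as a comparison and for 27 symbols that a spreadsheet had turned into dates in 1 table. The 3 entries that name no gene (no feature, not unique, ambiguous) took 48.7 to 54.7% of the entries of the WT libraries and were left out.

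All 16 libraries were fitted with 1 coefficient per group in edgeR 4.0.16 (R 4.3.3) with TMM factors, filterByExpr and robust quasi-likelihood tests, Benjamini-Hochberg adjusted over 12915 genes. CPM values use TMM-corrected totals. Standard errors are the size of the log2 difference over the square root of F, which is approximate. The procedure was run on simulated data with few changed genes and the same spread for every gene. Far more genes were called in the real libraries, so that run does not test the scaling under such wide change. Ratios of very low counts have exact 95% intervals from counting error only, and a floor of 3 counts over the group stands for 0. Replicates of 1 group differed by more than sampling noise in every pair. Alternatives were DESeq2 size factors, upper-quartile factors, library totals, no filter, DESeq2 1.42.0, limma-voom (limma 3.58.1), the 8 WT libraries alone, a 1.5-fold bound (glmTreat), shares without the 20 most abundant genes and each library left out in turn.

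Named genes were the 5 markers, up to 12 per direction by fold (at least 5 CPM in the higher group, no overlap) and by CPM difference, up to 4 per direction in each of 48 lists, up to 6 per direction among noncoding genes, 7 symbol families and interactions, and the 6 most variable per group at 10 CPM or more. Other called and uncalled genes, such as Hspa5, Xbp1, Ldha and Cftr, were added for their known roles, or to account for a small count, after their values were seen. Members and lists were chosen with earlier results of these data known. Of 21442 symbols, 19829 matched the reference table as current and 1497 as older names. Promoters come from a RefSeq table of GRCm38.p6, and gene positions, strands and exon lengths from the GENCODE mouse annotation.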

Additional observations from a re-analysis of the deposited data

Results flagged for a closer look

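Among the 276 genes named, 552 groups of 4 libraries were examined for a library far from the others, by the gap to its nearest neighbour over the range of the group. In 32 groups this ratio passed Dixon's 95% critical value for 4 samples, and chance alone flags about 1 in 20 groups. Library 9 of WT_GC was the highest for Muc6 at 1.27 CPM (nearest 0.447) and the lowest for Unc13d at 5.596 CPM (nearest 7.65). Library 11 of WT_GC was the highest for Notch1 at 38.5 CPM (nearest 27.5). Library 13 of WT_GC was the highest for C1galt1c1 at 154 CPM (nearest 146), Dclk1 at 22.9 CPM (nearest 16.1), Ostc at 196 CPM (nearest 167), Spink4 at 2506 CPM (nearest 2148) and Tpsg1 at 130.2 CPM (nearest 112) and the lowest for Creb3l1 at 158 CPM (nearest 182), Cxcl10 at 12.1 CPM (nearest 38.6), Erbb3 at 214 CPM (nearest 259) and Vdr at 100.1 CPM (nearest 131). Library 18 of WT_GC was the highest for Dpp4 at 116 CPM (nearest 113), Mep1a at 36.3 CPM (nearest 26.6), Myrip at 10.6 CPM (nearest 7.76) and Slc15a1 at 13.3 CPM (nearest 7.63). Library 10 of WT_EC was the highest for Atp2a2 at 342 CPM (nearest 327) and the lowest for Slc15a1 at 317 CPM (nearest 411). Library 12 of WT_EC was the highest for 5430427M07Rik at 49.8 CPM (nearest 42.1), Clcn2 at 455 CPM (nearest 346), Rpph1 at 8121 CPM (nearest 6393) and Slc9a3 at 321 CPM (nearest 231) and the lowest for 9030619P08Rik at 0 CPM (nearest 0.0634), Creb3l1 at 36.03 CPM (nearest 50.2) and Foxa3 at 15.2 CPM (nearest 23.1). Library 14 of WT_EC was the highest for Dclk1 at 35.3 CPM (nearest 18.6), Lgr5 at 18.7 CPM (nearest 13.4) and Mptx1 at 30.7 CPM (nearest 15.1) and the lowest for Fos at 2946 CPM (nearest 4047) and Hbegf at 579.7 CPM (nearest 831). Library 17 of WT_EC was the highest for Muc5ac at 0.0734 CPM (nearest 0) and Retnlb at 0.2203 CPM (nearest 0). Of these cases library 13 of WT_GC held 9 and library 12 of WT_EC 7.

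For 62 of the 276 named genes the difference between fractions depended on the genotype label by edgeR's interaction test, with adjusted p from 7.26e-09 to 0.0491. Over all tested genes the share was 9.53%. Some of the 276 were named for their interaction, which raises their share, so it is no result about the named genes. The value given is the log2 difference of WT_GC over WT_EC minus that of SpdefKO_GC over SpdefKO_EC, 30 above 0 and 32 below 0. For genes of the ER, the Golgi apparatus and glycan synthesis, the interaction was above 0 for B3gnt6 (4.72), Casc4 (4.01), Creb3l4 (3.87), Ppic (2.65), Galnt12 (1.64), Kdelr3 (0.97), Gfpt1 (0.89), Fut4 (0.62), Rab3d (0.61), Ostc (0.61), Fut8 (0.59), Ern2 (0.59), Copz1 (0.57), Galnt7 (0.53), Mia3 (0.45), Ero1l (0.44), Sec24d (0.44) and Slc30a7 (0.33) and below 0 for Unc13d (-0.82) and Ern1 (-0.53). For genes of mucus and other secreted products, the interaction was above 0 for Pla2g2a (2.68), Muc1 (2.06) and Klk1 (0.43) and below 0 for Muc4 (-1.69), Tff3 (-0.85), Muc2 (-0.84), Fcgbp (-0.83) and Clca1 (Clca3 in the files) (-0.70). For enteroendocrine and tuft cell genes, the interaction was below 0 for Gcg (-2.65), Tph1 (-2.63), Chgb (-2.50), Neurod1 (-2.44), Pyy (-2.13), Dclk1 (-1.94) and Hpgds (-1.28). For transport and surface genes, the interaction was above 0 for Kcne2 (5.68), Pde2a (1.02), Slc12a2 (0.70) and Stim1 (0.28) and below 0 for Guca2b (-1.95), Anpep (-1.49), Guca2a (-1.34), Slc9a3 (-1.21), Slc34a2 (-1.20), Prss30 (-0.93), Slc26a3 (-0.83), Mep1a (-0.64), Prdx6 (-0.49) and Cldn15 (-0.49). For the other genes, the interaction was above 0 for Dlk1 (3.83), Ccl6 (1.23), Acacb (0.74), Foxa3 (0.59) and Il13ra1 (0.46) and below 0 for Abcc8 (-3.65), Ret (-2.98), Il1b (-2.82), 5430427M07Rik (-2.13), Dll4 (-0.89), Bmp3 (-0.88), Dll1 (-0.79) and Irf7 (-0.62). B3gnt6, Kcne2 and Casc4 had the largest positive values of these genes and Abcc8 the largest negative one. All enteroendocrine genes among these had values below 0.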

How the results depend on the processing

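Counts of higher and lower genes were 3795 and 4037 with DESeq2 size factors in the same fit, 4859 and 3457 with upper-quartile factors, 4739 and 3482 with library totals alone, 4110 and 4049 with no filter beyond 1 count, 3803 and 4052 with DESeq2's Wald test, 4029 and 3893 with limma-voom and 4009 and 4138 from the 8 WT libraries alone, all within 1.5 times of 4007 and 3894. Tested against a 1.5-fold bound with glmTreat, 1440 were higher and 1950 lower. Leaving out each WT library in turn gave 3551 to 3827 higher and 3744 to 4037 lower genes, and leaving out each of the 16 libraries gave 387 to 718 positive and 459 to 797 negative interactions. With the 20 most abundant genes of each library left out, the mucus list held 0.736% of gene counts in WT_GC and 0.0949% in WT_EC. Ribosomal proteins held 4.60% and 3.43%, colonocyte markers 0.674% and 2.63%, the folding list 0.709% in WT_EC and the deep crypt list 0.605% in WT_GC. From the mucus list this removed Muc2, Fcgbp and further abundant members in WT_GC, and Pigr and Tgm3 in WT_EC.

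Of 273 named and tested genes, each gene called in the report kept its direction under every alternative run. Uncalled values near 0 changed sign, in log2: Cdx1 was -0.094 to 0.0069 with 1 WT library left out, 0.045 with upper-quartile factors and 0.039 with library totals alone. Dclk1 was -0.43 to 0.061 with 1 WT library left out. Egfr was -0.14 to 0.056 with 1 WT library left out, 0.067 with upper-quartile factors and 0.062 with library totals alone. Ero1l was -0.067 to 0.023 with 1 WT library left out, 0.076 with upper-quartile factors and 0.071 with library totals alone. Sox9 was -0.046 to 0.12 with 1 WT library left out. Calls of Gucy2c, Itpr3, Cxcl10 and Fos were lost under at least 1 alternative other than the fold bound, at which 30 named calls were lost; Cxcl10 and Fos were lost in the fit of the 8 WT libraries. Lower stromal markers were 10 with no filter, against 5. No paired analysis was made, because the labels do not state which libraries stem from the same mouse. Libraries with neighbouring numbers (9 and 10, 11 and 12, 13 and 14, 17 and 18) may be fractions of the same mouse, so the tests ignore any such pairing. On the second principal component libraries 13 and 14 were the highest of their groups, at 18.4 and 21.3. Libraries 18 and 17 were the lowest, at -14.1 and -10.9. Whether a shared mouse lies behind this was not tested. Depth limits genes of a few counts: for Mirg and Sdr16c6 only a lower bound can be given, and microRNA genes could not be tested singly. RNA column and fraction cannot be told apart under any setting.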
